A study of Mus musculus with 2 samples.

Results

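The EGF family ligands and ErbB receptors followed here are 9 genes: the ligands amphiregulin (Areg), epiregulin (Ereg), heparin-binding EGF-like growth factor (Hbegf), transforming growth factor alpha (Tgfa), betacellulin (Btc) and neuregulin 1 (Nrg1), and the receptors Egfr, Erbb2 and Erbb3. They were taken by symbol from the 32285 genes of the count tables, and all 9 had UMIs (unique molecular identifiers, 1 per captured RNA molecule) in both libraries. The cells came from mouse colon tumours induced with AOM/DSS, that is azoxymethane, a carcinogen, with dextran sulfate sodium, which injures the colon lining. There was 1 library of 10x Genomics 3′ chemistry, v3, from Gsk3b IEC+/+ tumours (called WT here) and 1 from Gsk3b IEC-/- tumours (called KO here), where IEC is the field's abbreviation for intestinal epithelial cells. Both libraries are of tumour tissue, so neither is normal colon. The driver of the deletion, the deleted part of Gsk3b, the age of the mice and the number of animals per library are not given in the sources used here. With 1 library per genotype no test was possible: all intervals below are exact 95% intervals that cover counting error only, no difference has a replicate check, and library and genotype cannot be told apart.

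The ligands of this family are made as membrane-anchored precursors and are released by sheddases such as Adam17. Areg, Ereg, Hbegf, Tgfa and Btc bind Egfr, with Ereg, Hbegf and Btc also binding Erbb4, whereas Nrg1 binds Erbb3 and Erbb4. Erbb2 has no known ligand of its own and signals as a partner of the others. Erbb3 has a weak kinase, and the signals of the family run largely through RAS and ERK. In the gut these ligands are known for repair of the epithelium after injury, and Areg is also known as a product of regulatory T cells and other lymphocytes at damaged barriers.

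Areg, Ereg and Btc lie side by side on mouse chromosome 5 (mm10, GENCODE M21, plus strand for Areg and Ereg): Ereg at chr5:91074622-91093646, Areg at chr5:91139599-91148432 and Btc, on the minus strand, at chr5:91357261-91402994. Egfr lies at chr11:16752203-16918158 on the plus strand. RefSeq promoter windows (GRCm38.p6, the 250 bases before the start of the gene) matched 5 of the 9 genes, and the sequences of Areg and Egfr are printed because they are the ligand and the receptor whose levels are followed most closely below. The Areg window is chr5:91139349-91139598 and the Egfr window chr11:16751953-16752202, both on the plus strand, 5′ to 3′, with motif matches in capitals.
Areg: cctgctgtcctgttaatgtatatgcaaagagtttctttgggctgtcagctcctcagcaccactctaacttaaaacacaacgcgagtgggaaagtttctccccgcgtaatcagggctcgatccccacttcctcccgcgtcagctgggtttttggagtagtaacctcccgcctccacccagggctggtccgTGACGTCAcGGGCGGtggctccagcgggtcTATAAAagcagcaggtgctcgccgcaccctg
Egfr: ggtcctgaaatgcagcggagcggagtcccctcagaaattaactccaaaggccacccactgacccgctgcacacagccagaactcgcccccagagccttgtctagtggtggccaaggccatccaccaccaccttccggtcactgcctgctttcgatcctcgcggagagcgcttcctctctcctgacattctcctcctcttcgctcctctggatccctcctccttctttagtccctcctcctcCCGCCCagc
The capitals in the Areg window mark a full cyclic AMP response element, TGACGTCA, whose first base lies 61 bases before the start, a GC box, GGGCGG, at 52 bases and a TATA motif, TATAAA, at 31 bases before it. In the Egfr window they mark a GC box on the minus strand whose first base lies 9 bases before the start. Of the 27025 RefSeq windows of that length, searched on both strands, TGACGTCA was in 1.62%, GGGCGG in 32.9% and TATAAA in 13.0%. The letters TGACTCA (AP-1; in 4.43% of windows) and CTTTGAT (a TCF motif; in 3.23%) were in neither printed window. These matches describe letters only and are not binding sites shown by these data.

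After cell calling, the WT library held 9503 cells (median 5711 UMIs) and the KO library 10309 (median 3561 UMIs), and 33 barcodes occurred in both. Each cell class was named from its own markers, all of which had UMIs in both libraries except Siglech, at 0 in KO dendritic cells. The large classes were epithelial cells (3975 WT, 3872 KO), T and NK cells (805, 761), monocytes or macrophages (1171, 735) and neutrophils (2601, 3650). The smaller ones were dendritic cells (204, 83), mast cells (139, 62), B cells (120, 504), plasma cells (47, 44), fibroblasts (27, 209) and endothelial cells (40, 68), with 374 and 321 cells left unnamed. Gsk3b itself was read at 264 counts per 1000000 UMIs of the class (CPM) in WT and 240 in KO epithelial cells, a log2 ratio of -0.14 (-0.16 to -0.11), and at 182 and 168 CPM in T and NK cells. A 3′ tag outside the deleted part would not report the deletion, so these values do not check the labels. Free RNA from broken cells was read in every class: from epithelial marker UMIs it made up between 10.7% and 15.9% of the UMIs of the other classes in WT and between 11.6% and 17.2% in KO, apart from KO endothelial cells at 32.3%.

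The ligands differed in where they were read. Hbegf, Tgfa and Btc were read mainly in epithelial cells, which held 95.8% and 96.2% of all Hbegf UMIs (WT and KO), 96.8% and 96.7% of Tgfa and 96.5% and 93.3% of Btc. Areg came from epithelial cells (78.7% of UMIs in WT, 91.5% in KO) and T and NK cells (15.5% and 3.73%). Ereg UMIs divided between epithelial cells (64.6% and 28.1%) and fibroblasts (24.8% and 68.7%), and Nrg1 UMIs lay in monocytes or macrophages (79.2% and 55.2%) and fibroblasts (3.02% and 28.1%). By UMIs the receptors were mostly epithelial: Erbb2 to 92.8% and 93.5%, Erbb3 to 96.2% and 96.1%, and Egfr to 95.3% and 89.0%, the rest of Egfr being largely fibroblast (1.29% and 7.97%). These shares depend on how many cells of a class each library held, and fibroblasts were 27 of the WT and 209 of the KO cells, so levels per class are given from here on.

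**Figure D1:**
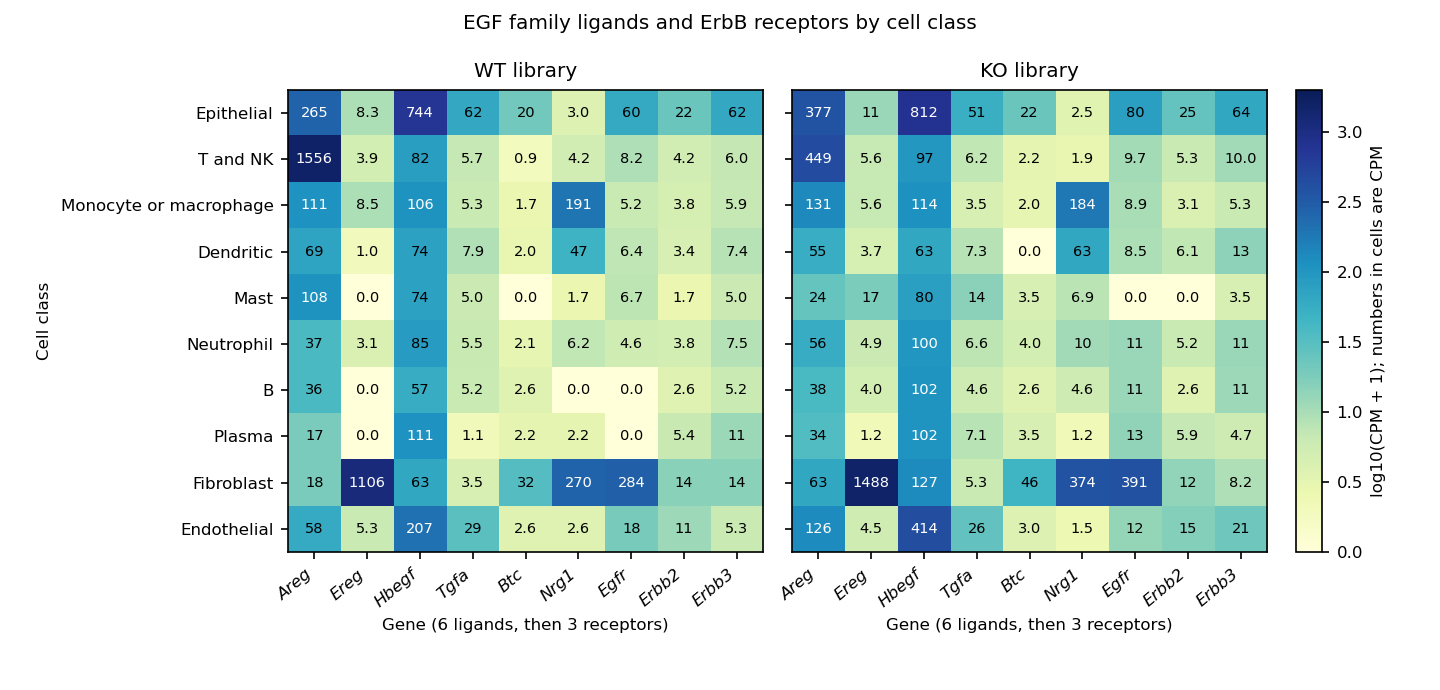
Level of the 9 genes in each cell class (rows) of the WT and KO libraries, as CPM of the class total (printed) and log10(CPM + 1) (colour); each cell of the plot is 1 pooled sum of UMIs. Areg stood highest in T and NK cells (1556 CPM in WT), Ereg in fibroblasts (1106 and 1488 CPM), Nrg1 in fibroblasts and monocytes or macrophages, and Erbb2 and Erbb3 in epithelial cells.

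In epithelial cells, Areg was read at 265 CPM (261 to 268; 26243 UMIs) in WT and 377 CPM (373 to 381; 35313 UMIs) in KO, a log2 ratio of 0.51 (0.49 to 0.53). Ereg was at 8.29 and 11.1 CPM, a ratio of 0.42 (0.29 to 0.56), with free RNA parts of 0.982 and 3.13 CPM. Egfr, the receptor of Areg and Ereg, was at 60.2 and 79.6 CPM, a ratio of 0.40 (0.35 to 0.45). Tgfa lay the other way, at 61.6 CPM in WT and 51.0 CPM in KO (-0.27, -0.33 to -0.22). The remaining members differed by less: Hbegf was at 744 and 812 CPM (0.13), Btc at 19.8 and 22.3 CPM (0.17), Erbb2 at 22.5 and 24.9 CPM (0.14) and Erbb3 at 62.0 and 63.6 CPM (0.04, -0.01 to 0.09). Nrg1 was low, at 2.96 and 2.54 CPM (-0.22, -0.48 to 0.03), with free RNA parts of 1.54 and 2.02 CPM.

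None of the 9 genes passed 1.5-fold in epithelial cells, in either direction. Of the 18478 genes with 20 or more UMIs there, 6.84% passed it higher in KO and 11.9% lower. The direction was kept under all 16 alternative settings for 6 of the 9, all but Nrg1, Hbegf and Erbb3. The median log2 ratio of the 9 was 0.14, against -0.07 over all genes. Areg and Ereg passed 1.5-fold when every barcode with 500 UMIs was taken as a cell (0.80 and 0.65) or when the mitochondrial limit was 10% (0.76 and 0.68). The share of epithelial cells with an Areg UMI, after each cell was thinned to 1000 UMIs, was 18.3% in WT and 24.7% in KO, and without thinning 73.2% and 80.8%. For Egfr the thinned shares were 5.44% and 7.02% (unthinned 47.0% and 54.4%), and for Hbegf 42.7% and 46.1% (90.5% and 92.7%).

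**Figure D2:**
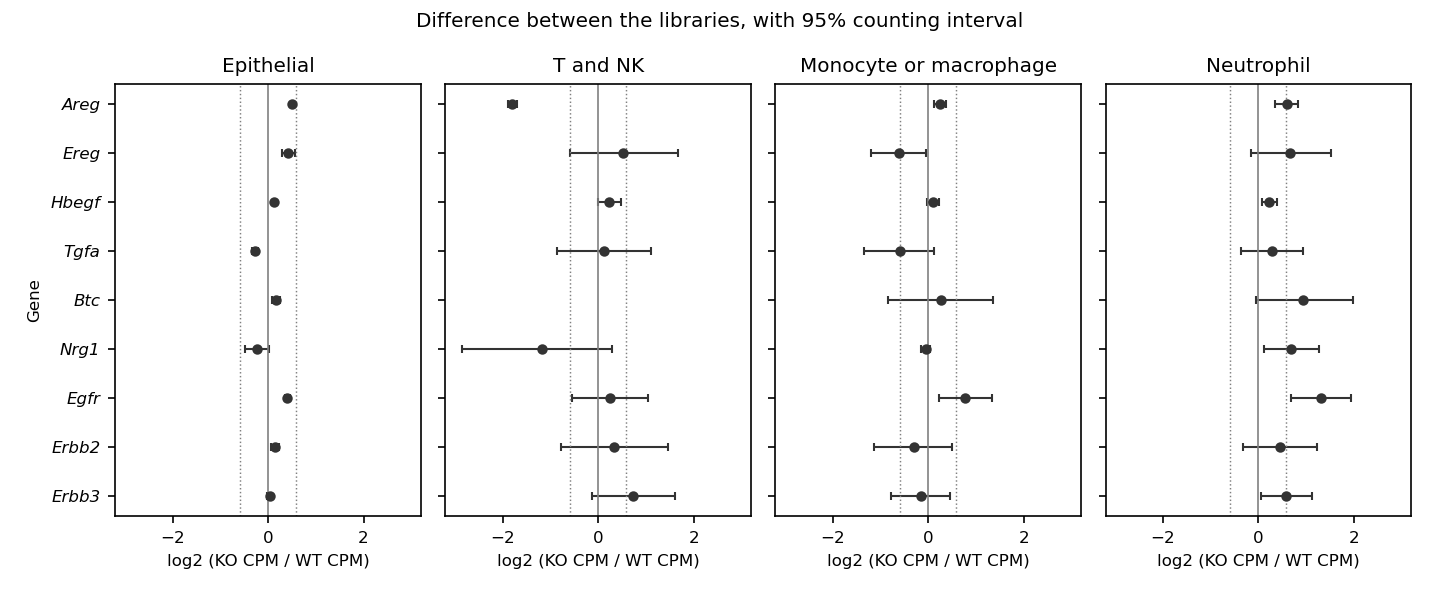
Log2 ratio of KO over WT CPM for each gene with 20 or more UMIs in 4 cell classes, with the exact 95% counting interval (bars); the solid line marks 0 and the dotted lines 1.5-fold. Areg stands at -1.79 in T and NK cells and at 0.51 in epithelial cells, and the epithelial points all lie inside the dotted lines.

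Epithelial cells fell into 15 subclusters, found without the 9 members among the clustering genes. They are called here by their leading genes and, where 3 or more fixed markers allowed it, by a type. Areg was highest in the absorptive-like cells led by Ly6g and Clca4b, at 1093 CPM in WT (174 cells) and 1120 CPM in KO (139 cells), a ratio of 0.04 (-0.02 to 0.10). The second absorptive-like state, led by Myl7 and Krt36, had 680 CPM in WT and 874 CPM in KO (0.36, 0.32 to 0.41). The mitotic progenitor-like cells led by Top2a had little, at 64.4 CPM in WT, and 144 CPM in KO (1.16, 0.97 to 1.35). Areg also stood higher in KO in the Fut9 Krt15 progenitor-like state (199 and 337 CPM, 0.76), in Paneth-like cells (168 and 251 CPM, 0.58), in goblet-like cells (184 and 308 CPM, 0.75) and in the unnamed Adh1 Muc3 state (330 and 495 CPM, 0.58). It was level or lower in KO in the stem or progenitor-like states led by Clstn2 (214 and 201 CPM, -0.09, -0.17 to -0.02) and Pdzrn4 (365 and 283 CPM, -0.37). So the epithelial difference in Areg was not one value: it ran from lower in KO to more than 2-fold higher, and it was near 0 where Areg was highest.

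The make-up of the epithelium also differed between the libraries. The Tgm4 Cadps state, with Areg at 81.3 CPM in WT, held 597 WT cells and 11 KO cells, while the Adh1 Muc3 state held 127 and 439 and the goblet-like cells 83 and 278. When the KO states were weighted as in WT, over the 13 states with 20 or more cells in both libraries, Areg was at 306 CPM in WT and 379 CPM in KO, a log2 ratio of 0.31 against 0.51 unweighted. With the same weights Ereg came to 0.20 against 0.42 unweighted. Egfr kept 0.32, Tgfa came to -0.05, Hbegf to -0.02 and Erbb3 to -0.16. Nrg1, at 3.24 and 2.12 CPM, came to -0.61, past 1.5-fold. The part that library-specific states played in these differences was not tested beyond this weighting.

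Hbegf was broad. It reached 1480 CPM in WT and 1407 CPM in KO in the Adh1 Muc3 state, 1147 and 949 CPM in the Ly6g Clca4b state, and still 443 and 534 CPM in mitotic cells. Tgfa had another order of states. It was at 115 CPM in 75 WT cells and 175 CPM in 33 KO cells of the progenitor-like state led by Wdr49, against 50.5 and 49.1 CPM in the Ly6g Clca4b cells, where Areg peaked. In goblet-like cells Tgfa was at 15.3 CPM in KO. Btc was highest in the Pdzrn4 progenitor-like state (49.8 and 45.0 CPM), followed by the Myl7 Krt36 state (38.5 and 42.4 CPM). Epithelial Ereg was also highest, among states of the WT library, in the Myl7 Krt36 state, at 40.4 CPM in WT (366 of the 822 epithelial UMIs) and 35.6 CPM in KO (-0.18, -0.39 to 0.03). In the Ly6g Clca4b state Ereg was at 17.7 and 12.6 CPM (-0.49, -1.06 to 0.05). It was higher in KO in the Fut9 Krt15 state (8.86 and 14.6 CPM, 0.72, 0.44 to 1.01) and the Adh1 Muc3 state (1.16 and 8.92 CPM).

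**Figure D3:**
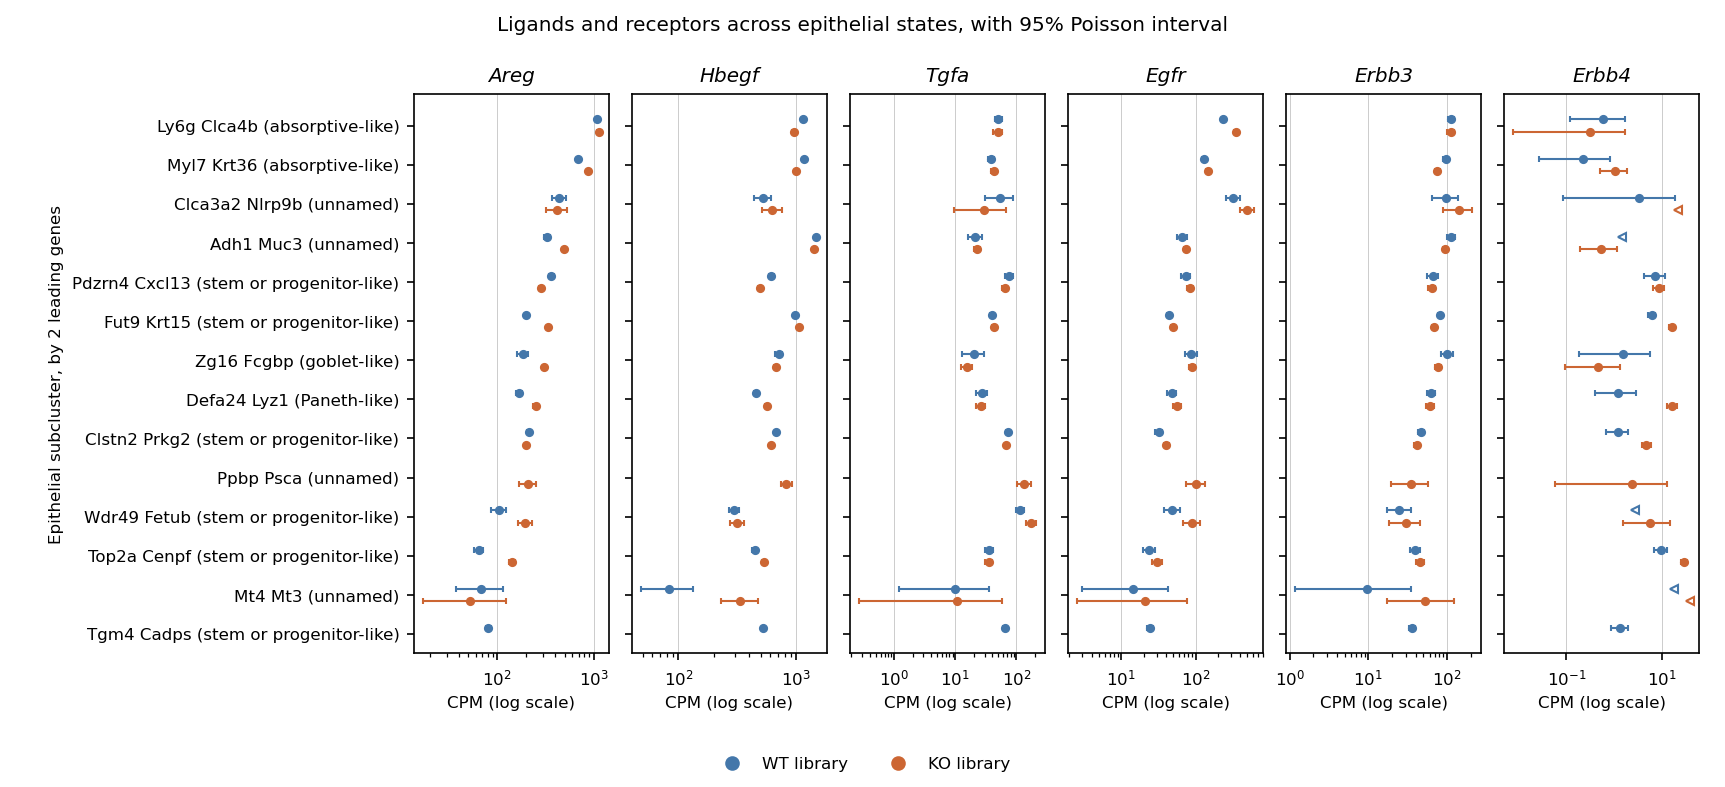
CPM (log axis) of 3 ligands and 3 receptors, Erbb4 included, in epithelial subclusters with 20 or more cells in a library (1 subcluster is not shown); points are pooled sums, bars the 95% Poisson interval, and an open triangle the upper limit where no UMI was read. Areg is highest in the Ly6g Clca4b state in both libraries, whereas Tgfa is lower there than in the progenitor-like Wdr49 state.

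Among the named epithelial states Egfr, like Areg, was highest in absorptive-like cells. In the Ly6g Clca4b cells it was at 237 CPM in WT and 352 CPM in KO (0.57, 0.46 to 0.69), in the Myl7 Krt36 cells at 129 and 145 CPM (0.18), and in mitotic cells at 24.0 and 30.3 CPM (0.34). The unnamed Clca3a2 state, of few UMIs per cell (median 1196.5) and a median mitochondrial share of 15.9%, against 1.21% to 7.39% in the other epithelial states, had 322 and 496 CPM of Egfr and 121 and 304 CPM of Erbb2, from 96 and 85 Egfr UMIs and 36 and 52 Erbb2 UMIs. Outside that state Erbb2 stayed between 9.04 CPM and 45.4 CPM in states with 10 or more of its UMIs. Erbb3 was at 112 and 111 CPM in the Ly6g Clca4b state and at 111 and 95.1 CPM in the Adh1 Muc3 state. Erbb3 was lower in KO in goblet-like cells (101 and 75.7 CPM, -0.41, -0.69 to -0.12) and in the Myl7 Krt36 cells (96.4 and 75.1 CPM, -0.36, -0.50 to -0.22). It was also lower in the Fut9 Krt15 (-0.24, -0.35 to -0.13), Adh1 Muc3 (-0.23, -0.42 to -0.03) and Clstn2 states (-0.18, -0.34 to -0.01). In some states the Erbb3 ratio was above 0 with an interval that included 0, such as mitotic cells (0.21, -0.07 to 0.48). Over the whole epithelium Erbb3 differed by 0.04.

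At the level of single cells, pairs of a ligand and a receptor differed in how often they were read together. After thinning to 1000 UMIs, Areg and Egfr were both read in 65 of 3862 WT cells (38.5 by the product) and 100 of 3805 KO cells (66.0 by the product). Tgfa and Egfr were both read in 9 WT cells (12.3 by the product) and 10 KO cells (12.7 by the product). Areg and Hbegf were both read in 368 and 532 cells, against 302 and 433 by the product, whereas Areg and Tgfa shared 34 and 34 cells, against 41.4 and 44.7. These counts are sparse, cells of a state share many genes, and no test was made of them.

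Outside the 9 genes, 61 other genes of the pathway were followed in 7 lists, and in the epithelium 4 were past 1.5-fold higher and 5 lower in KO, with a median log2 ratio of 0.00 against -0.07 over all genes. Over all genes tested there, 6.84% were past it higher and 11.9% lower, so the lists as a whole held no more such genes than that background. Erbb4, the remaining receptor of the family, was low but differed most, at 2.59 CPM (257 UMIs) in WT and 7.28 CPM (683 UMIs) in KO, a log2 ratio of 1.49 (1.28 to 1.70). Higher KO values of Erbb4 were read in the mitotic cells (9.38 and 28.8 CPM, 1.62), in the Fut9 Krt15 state (6.01 and 15.8 CPM, 1.40), in the Clstn2 state (1.20 and 4.69 CPM, 1.97) and in Paneth-like cells (1.20 and 16.2 CPM). It rested on few cells: in the mitotic state 15 of 124 WT and 39 of 189 KO cells had an Erbb4 UMI, and in Paneth-like cells 4 of 195 and 18 of 167, with 20 of the 77 KO UMIs in 1 cell.

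Among the other ligands, Egf itself was at the edge of detection (48 UMIs, 0.484 CPM in WT; 82 UMIs, 0.874 CPM in KO), and so were Epgn (45 and 27 UMIs), Nrg2 (25 and 25) and Nrg3 (11 and 13). Nrg4, a ligand of Erbb4, was at 2.26 and 1.32 CPM (-0.77, -1.10 to -0.45). Of the 7 genes of ligand release, Adam12 alone passed 1.5-fold, at 37.5 and 22.2 CPM (-0.76). By state the Adam12 ratio was -0.99 in mitotic cells, -0.31 in the Clstn2 state, -0.12 in the Fut9 Krt15 state and 0.08 in the Pdzrn4 state. Adam17, the main sheddase of Areg and Tgfa, was at 33.6 and 36.8 CPM (0.13) and its partner Rhbdf2 at 37.0 and 38.0 CPM (0.04). Of the 10 inhibitors and degraders of the receptors, Lrig3 alone passed 1.5-fold (9.95 and 16.7 CPM, 0.75). Within the Adh1 Muc3 state, however, Lrig3 was at 62.0 and 46.0 CPM (-0.43, -0.69 to -0.17) and in goblet-like cells at 38.4 and 27.2 CPM (-0.50, -0.96 to -0.02), and both states held more KO than WT cells. Errfi1, a feedback inhibitor of Egfr, was at 382 and 437 CPM (0.19) and Lrig1 at 65.2 and 60.4 CPM (-0.11).

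The 16 adaptors and core kinases had 0 members past 1.5-fold in the epithelium, with a median of -0.01. In the 10 feedback inhibitors of RAS and ERK, Spry4 was higher (3.84 and 5.89 CPM, 0.62) and Spred3 lower (1.70 and 0.949 CPM, -0.84) in KO, with a list median of 0.11. Of the 12 RAS-ERK response genes, Etv5, a transcription factor induced by ERK, alone passed the fold, at 67.4 CPM in WT and 34.6 CPM in KO (-0.96, -1.03 to -0.90). Within states the Etv5 ratio was -1.24 in mitotic cells (86.0 and 36.5 CPM) and -0.28 in the Clstn2 state (82.4 and 67.9 CPM). It lay the other way in the Pdzrn4 state (16.7 and 24.7 CPM, 0.56, 0.05 to 1.10) and in the Adh1 Muc3 state (8.92 and 12.3 CPM, 0.47, -0.17 to 1.17). Among the states compared, mitotic cells alone had an Etv5 ratio below that of the whole epithelium. Paneth-like cells came next (-0.69, -1.15 to -0.24). The Tgm4 Cadps state, with 597 WT and 11 KO cells, was not compared, and Etv5 was not weighted by state. The part of that state in the whole-epithelium Etv5 ratio was not tested.

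In T and NK cells Areg was read at 1556 CPM (1514 to 1600; 5150 UMIs) in WT and 449 CPM (426 to 473; 1441 UMIs) in KO, a log2 ratio of -1.79 (-1.88 to -1.71), or 3.47-fold lower in KO. Cells with an Areg UMI were 50.9% of 805 in WT and 34.8% of 761 in KO, and after thinning 35.8% and 19.8%. In neutrophils, whose Areg level was near its free RNA part, the thinned shares were 3.49% and 4.50%. Free RNA accounted for an estimated 28.6 CPM in WT and 37.4 CPM in KO T and NK cells, since their epithelial marker UMIs gave a free RNA share of 13.4% in both libraries. The Areg level in KO T and NK cells was therefore above its free RNA part as well. Of the epithelial markers, all 7 were read in these cells, with a sum of 1582 CPM in WT and 1766 CPM in KO. Markers of monocytes or macrophages (8 and 7 of 8 read) summed to 284 and 155 CPM and those of mast cells (7 and 6 of 7) to 261 and 98.8 CPM. Their part in the Areg difference was not tested.

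Areg had by far the most UMIs of the 9 genes in these cells. Of the 8 members with 20 or more UMIs, 1 was past 1.5-fold higher in KO (Erbb3, 20 and 32 UMIs) and 2 lower (Areg, and Nrg1 with 14 and 6 UMIs), where 7.92% of 11408 genes were past it higher and 8.53% lower. Both rest on few UMIs: without doublet removal the Erbb3 ratio came to -0.000148 and the Nrg1 ratio to 0.54. Hbegf was at 82.2 and 96.9 CPM (0.24, -0.00 to 0.48), of which an estimated 53.4 and 62.5 CPM was free RNA, and Tgfa, Ereg, Egfr, Erbb2 and Erbb3 were each under 10 CPM in both libraries. Of 51 other pathway genes, 3 were past the fold higher and 3 lower: Adam12 was at 123 and 64.5 CPM (-0.93), Myc at 24.2 and 39.6 CPM (0.71), Ccnd1 at 20.9 and 13.7 CPM (-0.60) and Spry2 at 8.46 and 19.3 CPM (1.19).

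By T cell subcluster, Areg in WT was highest in the Treg-like cells led by Il10 and Gas2, which carry Foxp3 among their leading genes, at 3033 CPM (100 cells), and in KO it was highest in the same cells, at 1493 CPM (33 cells), a ratio of -1.02 (-1.25 to -0.80). The gamma-delta T-like cells led by Trdc and Blk followed, at 2683 CPM in WT (134 cells) and 1258 CPM in KO (92 cells; -1.09). In the larger Treg-like state led by Il1rl1 and Klrg1, where Il1rl1 is the receptor of interleukin-33, Areg was at 1194 CPM in WT (238 cells) and 900 CPM in KO (181 cells; -0.41, -0.57 to -0.25). The share of those cells with an Areg UMI was 62.2% in WT and 61.9% in KO.

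The widest gap was in the unnamed state led by Il17a and Cd40lg, genes of helper T cells, with 1323 CPM (947 UMIs, 160 cells) in WT and 122 CPM (38 UMIs, 91 cells) in KO, a ratio of -3.44 (-3.95 to -2.97). The thinned share of these cells with an Areg UMI was 31.4% in WT and 8.89% in KO, and 13 of the 38 KO UMIs were in 1 cell. Mitotic T cells led by Pclaf were at 754 CPM in WT (24 cells) and 99.1 CPM in KO (80 cells; -2.93). Naive T-like cells (68.5 and 123 CPM) and CD8-like cells (41.0 and 46.2 CPM) had little Areg in either library, and their intervals overlapped. With the KO subclusters weighted as in WT, the Areg ratio of the whole class was -1.17 in place of -1.79, from 1582 and 703 CPM, and stayed past 1.5-fold.

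**Figure D4:**
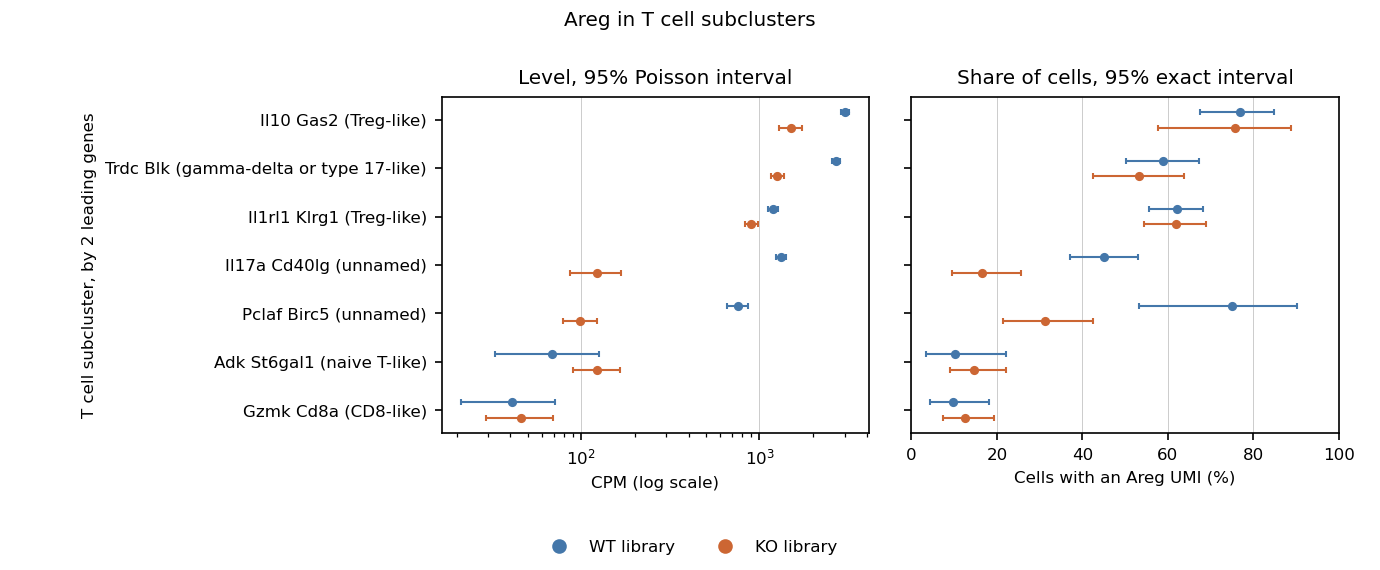
Areg in T cell subclusters with 20 or more cells in a library: left, CPM of the summed UMIs (log axis) with the 95% Poisson interval; right, the percent of cells with an Areg UMI, before thinning, with the exact 95% interval. Levels are lower in KO in 5 of the 7 subclusters, and the share of cells is nearly equal in both Treg-like states.

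Monocytes and macrophages were the main source of Nrg1 by number of UMIs, with 191 CPM (2020 UMIs) in WT and 184 CPM (1257 UMIs) in KO, a ratio of -0.06 (-0.16 to 0.05). Free RNA accounted for an estimated 1.93 and 1.60 CPM of this. Nrg1 was graded over the macrophage states: it was highest in the cells led by Serpinb2 and Saa3, at 545 CPM in 245 WT cells and 678 CPM in 171 KO cells (0.32, 0.16 to 0.47), and 59.6% and 62.6% of these cells had an Nrg1 UMI. It was at 279 and 245 CPM in the Ccl24 Il4i1 state, 225 and 243 CPM in the Ly6c2-expressing monocyte state led by Ifitm6, and 223 and 181 CPM in the Grasp Nr4a2 state. In the Mfge8 Gpnmb state it was at 105 CPM in 218 WT cells and 30.5 CPM in 198 KO cells (-1.78, -2.12 to -1.46), so that 1 state differed by over 3-fold while the class as a whole did not.

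Areg in monocytes and macrophages was at 111 and 131 CPM (0.25, 0.12 to 0.37), and was highest in the Ccl24 Il4i1 and Serpinb2 Saa3 states. In the Ccl24 Il4i1 state it was at 239 CPM in WT and 425 CPM in KO (0.83, 0.58 to 1.08). Of the 9 members, 1 was past 1.5-fold higher in KO (Egfr, 5.20 and 8.92 CPM) and 2 lower (Ereg, 8.51 and 5.55 CPM, and Tgfa, 5.29 and 3.51 CPM), where 6.32% of 12851 genes were past it higher and 7.56% lower. Free RNA parts were 3.70 and 5.43 CPM for Egfr and 3.92 and 3.71 CPM for Tgfa, near their levels, and 1.23 and 2.48 CPM for Ereg. After thinning, 0 members passed the fold in either direction. Egfr, Ereg and Tgfa then had too few UMIs to be counted, so this 0 says nothing of their ratios. Ereg UMIs lay in few cells (2.22% and 3.13% of the class), with 19 of the 37 WT UMIs of the Ccl24 Il4i1 state in 1 cell. Of 56 other pathway genes, 6 were past the fold higher and 3 lower, among them Dusp6, an ERK phosphatase, at 88.2 and 56.0 CPM (-0.66), Dusp4 at 13.2 and 24.7 CPM (0.90), Nrg4 at 3.50 and 10.7 CPM (1.61) and Epha2 at 4.35 and 6.72 CPM (0.63). Dendritic cells also had Nrg1, at 47.2 CPM (96 UMIs) in WT and 63.4 CPM (52 UMIs) in KO, and without the cell with the most UMIs in each library it was at 35.6 and 44.5 CPM. Their Areg, at 69.3 and 54.9 CPM, had free RNA parts of 27.4 and 32.6 CPM, and without 1 cell the KO level was 40.8 CPM.

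Fibroblasts expressed Ereg, Nrg1 and Egfr in both libraries, though the WT values rest on 27 cells and the values are set side by side only. Ereg was at 1106 CPM in WT (316 UMIs, read in 74.1% of cells) and 1488 CPM in KO (2549 UMIs, 75.6% of 209 cells), and without the single cell with the most UMIs WT was at 852 CPM. Egfr was at 284 CPM (81 UMIs) and 391 CPM (669 UMIs), and 66.7% and 69.4% of fibroblasts had an Egfr UMI. Nrg1 was at 270 CPM (77 UMIs) and 374 CPM (641 UMIs), but in 29.6% and 28.2% of cells only: 50 of the WT and 266 of the KO UMIs were in 1 cell each, and without these cells the levels were 101 and 221 CPM. Btc, at 31.5 and 45.5 CPM, was above its free RNA part of 1.31 and 2.22 CPM.

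Ereg and Nrg1 were unequal between KO fibroblast states, which were found without the 9 members among the clustering genes. In the 73 cells led by Iigp1 and Frmpd4, Ereg was at 2550 CPM, in 91.8% of cells, and Egfr at 658 CPM, while Nrg1 was at 206 CPM. In the 46 cells led by Inhba and Sncaip, Nrg1 was at 805 CPM (381 CPM without its top cell), Ereg at 707 CPM and Egfr at 185 CPM. The 47 cells led by Gas1 and Ptgis had 613 CPM of Ereg and 475 CPM of Egfr but only 9.80 CPM of Nrg1 (2 UMIs). WT fibroblast states held 3 to 13 cells each and are not compared.

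**Figure D5:**
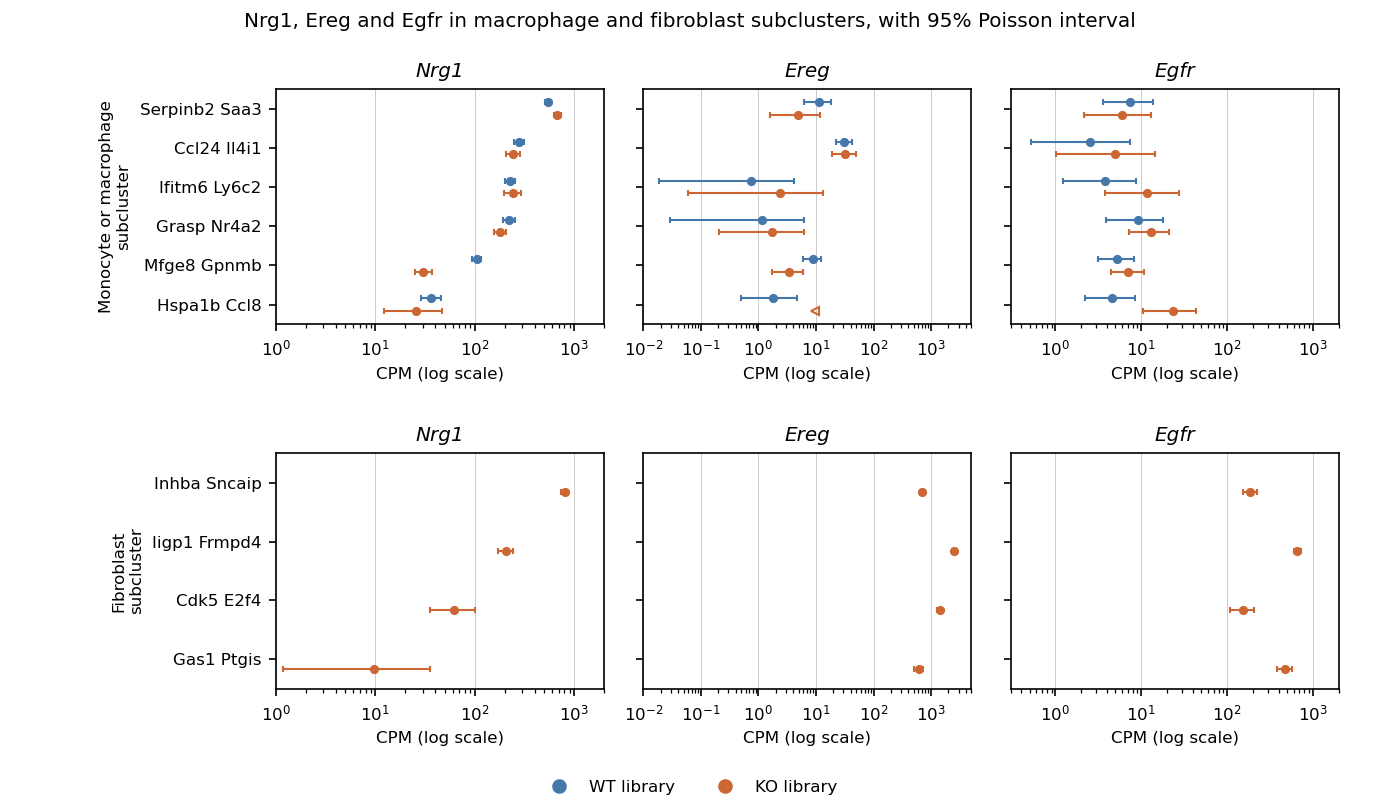
CPM (log axis) of Nrg1, Ereg and Egfr in macrophage (upper row) and fibroblast (lower row) subclusters with 20 or more cells in a library, with the 95% Poisson interval; an open triangle is an upper limit where no UMI was read. In KO, Nrg1 runs from 678 to 25.7 CPM over the macrophage states and from 805 to 9.80 CPM over the fibroblast states, and WT fibroblast states are not drawn because none holds 20 cells.

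Endothelial cells had Hbegf at 207 CPM in 40 WT cells and 414 CPM in 68 KO cells, with a free RNA part of 48.3 and 150 CPM. All 7 epithelial markers were read in them, with a sum of 1431 CPM in WT and 4245 CPM in KO, and 93 of the 273 KO Hbegf UMIs were in 1 cell; the part of these in the Hbegf values was not tested. Mast cells had 64 Areg UMIs in WT (108 CPM) and 7 in KO (24.3 CPM), but 44 of the 64 lay in 1 cell, without which WT was at 33.7 CPM, close to the free RNA parts of 26.7 and 37.6 CPM. Apart from that cell, mast cell Areg beyond free RNA was not detectable at this depth.

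In neutrophils 5 of the 9 members were past 1.5-fold higher in KO and 0 lower, where 18.5% of 11644 genes were past it higher and 6.02% lower. The 5 were Areg (37.3 and 56.1 CPM, 0.59), Ereg (3.11 and 4.94 CPM), Btc (2.07 and 3.95 CPM), Nrg1 (6.21 and 10.0 CPM, 0.69) and Egfr (4.58 and 11.3 CPM, 1.30). With median-of-ratios scaling, which shifts all neutrophil ratios by 0.17, Btc and Egfr alone remained. The estimated free RNA parts were 31.9 and 47.8 CPM for Areg, 4.68 and 8.06 CPM for Egfr and 1.82 and 2.69 CPM for Btc, so that free RNA made up most of each of these levels by this estimate. For Ereg they were 1.56 and 3.68 CPM. Nrg1 stood further above its free RNA parts, which were 2.44 and 2.37 CPM. The epithelial markers summed to 1767 CPM in WT and 2255 CPM in KO neutrophils, all 7 read in both; their part was not tested. Of 52 other pathway genes 6 were past the fold higher and 2 lower, among them Gab2 at 355 and 533 CPM (0.59), Fosl1 at 134 and 67.5 CPM (-0.99), Spred1 at 7.25 and 13.0 CPM (0.84) and Spry1 at 2.66 and 6.07 CPM (1.19).

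In B cells 2 members had 20 or more UMIs and 1 was past the fold higher in KO, Hbegf at 57.2 and 102 CPM (0.84, 0.19 to 1.55), with free RNA parts of 53.6 and 68.3 CPM; 13.2% of 8061 genes were past it higher and 12.2% lower. Areg was at 36.4 and 38.3 CPM. Of 43 other pathway genes 7 were past the fold higher and 3 lower, among them Egr1 at 304 and 495 CPM (0.70), Cblb at 281 and 440 CPM (0.65), Nras at 39.0 and 65.3 CPM (0.74) and Spred2 at 36.4 and 57.4 CPM (0.66). Plasma cells had 17.4 and 34.1 CPM of Areg, under its free RNA parts of 33.8 and 45.5 CPM.

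Across the 20 sums of class and library, 13193 genes were ranked by how like each member's their log2(CPM + 1) was. The 3 most alike were Ifit1 (Pearson r = 0.88), Sdcbp2 and Mtmr7 for Areg, and Ccdc80 (0.95), Has1 and Vgll3 for Ereg. They were Dsg2 (0.96), Lmo7 and Plpp2 for Hbegf, and Clu (0.93), Mgst3 and Jup for Tgfa. For Btc they were Arhgap42 (0.91), Gpr39 and Thbs2, for Nrg1 Mfsd7a (0.93), Mmp19 and Lrp1. For Egfr they were Fgf1 (0.95), Robo2 and Dgkq, for Erbb2 Atp9a (0.95), Slc4a4 and Sema3b, and for Erbb3 Ifi27l2b (0.95), Myo5b and Styk1. The points share libraries, free RNA and the sharp contrast between the epithelium and other cells, so these values describe the distribution over classes only.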

How the data were processed

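The authors deposited unfiltered whole-number UMI counts per gene and barcode, written by Cell Ranger 4 per the file headers. The submitters' processing notes name mm10 and Seurat. WT held 164574326 UMIs over 2446729 barcodes, and KO held 156641780 UMIs over 2457921. Every value column was assigned to a sample (0 left over).

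Cells were called against free RNA (barcodes under 100 UMIs; 10000 Monte Carlo draws from 500 UMIs, FDR 0.001): 11131 WT and 11972 KO barcodes. Of these, 766 and 635 with over 25% mitochondrial UMIs, 3 and 0 with under 200 genes, and 859 and 1028 with the highest Scrublet doublet scores (0.8% per 1000 cells) were removed. Scrublet's own threshold would have marked 1 WT and 399 KO barcodes. Cells were clustered without batch integration (2000 variable genes, with the 9 members and 61 pathway genes left out; 30 principal components, 15 neighbours, Leiden resolution 1, subclusters at 0.6) with scanpy 1.11.5, igraph 0.11.9, scipy 1.17.1 and numpy 2.4.6 under Python 3.11.15. A cluster was named where at least 3 markers of a class were read in 25% of its cells and exceeded the lower quartile of the clusters by 2-fold, unless another class led its top 10 genes. Haemoglobin genes were left out of those leading genes. This, and the free RNA share taken per class from epithelial markers, was chosen after seeing the data. For epithelial cells the share came from immunoglobulin UMIs instead, at 9.47% in WT and 14.6% in KO. The free RNA subtraction among the alternatives used 1 immunoglobulin share per library, 10.1% and 14.7%, estimated over all classes but B and plasma cells.

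Summed UMIs of each class in each library were scaled to its total (CPM). Levels carry exact Poisson intervals, shares of cells exact Clopper-Pearson intervals and ratios exact conditional binomial intervals, all 95% and for counting error only. Ratios were read for classes of at least 100 cells in each library, and genes with 20 or more UMIs were counted past 1.5-fold. Gene lists and members were chosen with earlier results of these data known. Named pathway genes were 10 fixed epithelial genes and, beyond them, up to 4 per list in the epithelium and up to 4 per other class past the fold with the most UMIs, of 50 or more; the 3 genes most like each member were ranked among genes with 200 or more UMIs. The interval and fold calculations were tested on simulated data. The values of 1 epithelial subcluster are not reported here; its cells stay in the class sums and in the weighting.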

Additional observations from a re-analysis of the deposited data

Results flagged for a closer look

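Areg differed in direction between cell classes: it was higher in KO in epithelial cells (log2 ratio 0.51), monocytes or macrophages (0.25) and neutrophils (0.59), and lower in T and NK cells (-1.79). The log2 ratios differed from that of T and NK cells by 2.30, 2.04 and 2.38. Ereg was higher in KO in epithelial cells (0.42) and lower in monocytes or macrophages (-0.62), a gap of 1.04. With subclusters weighted as in WT, the epithelial Ereg ratio was 0.20. After free RNA subtraction the Areg ratio was 0.01 in neutrophils and 0.09 in monocytes or macrophages. That subtraction used 1 share per library from immunoglobulin UMIs, 10.1% in WT and 14.7% in KO. The class shares from epithelial markers are another estimate and were not the ones subtracted. By them, 31.9 of 37.3 CPM in WT and 47.8 of 56.1 CPM in KO neutrophils was free RNA. The Ereg ratio of monocytes or macrophages ranged from -1.56 to -0.18 over the alternatives. With 1 library per genotype, none of these differences between classes was tested.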

How the results depend on the processing

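The lower Areg of KO T and NK cells kept its direction and stayed past 1.5-fold under all 16 alternatives, with log2 ratios from -1.84 to -1.17: it was -1.61 without doublet removal, -1.60 as a mean over cells, -1.57 in thinned cells and -1.17 with subclusters weighted as in WT. The higher epithelial Areg kept its direction in all 16, from 0.31 to 0.80: 0.80 with every barcode of 500 UMIs, 0.76 with a mitochondrial limit of 10%, 0.45 without doublet removal, 0.58 with median-of-ratios scaling, 0.44 as a mean over cells, 0.54 after free RNA subtraction, 0.32 with haemoglobin genes allowed in naming and 0.31 with subclusters weighted as in WT. The last 2, and the counting of unnamed clusters in their best class, were chosen after seeing the data.

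Counts of members past 1.5-fold were small and moved. In epithelial cells, 2 were higher with 500 UMIs or the 10% limit and 1 as a mean over cells or thinned, and 1 was lower as a mean over cells, after free RNA subtraction or with subclusters weighted as in WT, against 0 and 0. In T and NK cells 0 were higher with 500 UMIs, the 10% limit or thinning and 2 when weighted, and 1 was lower with 500 UMIs, without doublet removal, thinned or with genes of 50 UMIs, and 4 after free RNA subtraction. In monocytes or macrophages 0 were higher as a mean over cells, after free RNA subtraction or thinned, and 0 were lower with 500 UMIs, without doublet removal, thinned or weighted, 1 as a mean over cells and 4 after free RNA subtraction. In neutrophils 2 were higher with median-of-ratios scaling or thinned and 3 as a mean over cells. In B cells 5 were higher without doublet removal and 1 was lower after free RNA subtraction. Some counts fell because members no longer had the UMIs needed, which says nothing of their ratios. With genes of 50 UMIs this held for Nrg1 in T and NK cells. In thinned cells it held for Nrg1 and Erbb3 of T and NK cells and for Btc of neutrophils. It also held there for Egfr, Ereg and Tgfa of monocytes or macrophages. Of the ratios past 1.5-fold, those that turned sign were Nrg1 (0.54) and Erbb3 (-0.000148) in T and NK cells without doublet removal, and of Ereg in neutrophils after free RNA subtraction (-0.13) and thinned (-0.037). Of all 37 ratios, 19 kept their sign in all alternatives run. Among the others were epithelial Hbegf (to -0.02), Nrg1 (to 0.16) and Erbb3 (to -0.16), T and NK cell Hbegf (to -0.49), and B cell Areg (to -2.84). The cause of the shifts in ratios was not tested. Depth limits Ereg, Btc and the receptors outside the epithelium and fibroblasts, where they had few UMIs. No paired analysis was possible because each genotype has 1 library and no result comes from a test.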

Other observations

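The small unnamed epithelial state led by Ppbp, Psca and Sprr2d was read in 30 KO cells and 0 WT cells. In it Tgfa was at 134 CPM and Ereg at 85.2 CPM, of which 17 of 37 UMIs were in 1 cell. Nrg1 was at 87.5 CPM there, but 37 of its 38 UMIs were in 1 cell, without which it was at 2.44 CPM. In the WT cells of the progenitor-like state led by Wdr49, Nrg1 was at 79.8 CPM, from 106 UMIs in 10 of 75 cells, while the 33 KO cells had 1 UMI. Over all epithelial cells Nrg1 had 294 UMIs in WT and 238 in KO.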
